A study of Mus musculus with 24 samples.

Results

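Doxycycline was withdrawn from pancreatic ductal adenocarcinoma (PDAC) cells whose Pcyt2 had been edited and then replaced with a cDNA, and RNA-seq gave the transcriptome 6 days later. The comparison rests on 4 of the 24 libraries of the series, with all 14916 expressed genes of 55401 in the table as its members. The cells off doxycycline (n = 2) and the cells on 1 µg/ml doxycycline (n = 2) were the same mouse KPsh line, a PDAC line with a short hairpin that silences Trp53 while doxycycline is present. Both groups were grown on collagen-coated plates and carried a guide against Pcyt2 (sgPcyt2) and a Pcyt2 cDNA that the guide cannot cut. Only the drug differed between them, so p53 restoration and the loss of doxycycline itself cannot be told apart. The same withdrawal was read in sgPcyt2 cells without the cDNA (n = 2 off and n = 2 on doxycycline, 6 days), and the spread was estimated over these 8 libraries together. Unedited KPsh cells (n = 3 off and n = 3 on doxycycline, 10 days) stand beside them in a separate table. The labels do not say whether edited cells came from 1 clone or replicates from separate cultures, so the p-values rest on library-to-library spread that may be technical only.

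p53, encoded by Trp53, is a transcription factor that stress stabilises. It switches on genes of cell-cycle arrest, apoptosis, metabolism and DNA repair, and it lowers cell-cycle genes mainly through the cyclin-dependent kinase inhibitor p21 and the repressive DREAM complex. Pcyt2 makes CDP-ethanolamine, the step before the last in the branch of the Kennedy pathway that builds phosphatidylethanolamine, and a parallel branch through Chka and Pcyt1a builds phosphatidylcholine. Cells can also recover the headgroups choline and ethanolamine from phospholipids that they break down, in part in lysosomes.

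Library totals lay between 13806378 and 17132699 counts over the 8 libraries, and values are given in CPM (reads of a gene per fixed number of reads in the library), with library sizes set by the TMM method. Mitochondrial genes took 3.34% and 3.33% of the counts off doxycycline, against 2.00% and 1.95% on it, and the part of this shift in the results was not tested beyond a fit without these genes, which called 5544 genes higher and 5400 lower. The 8 epithelial markers, led by Krt8, summed to 11390 and 11430 CPM off doxycycline and to 7505 and 7498 CPM on it, and 2 of the 8, of which Epcam is one, stayed below 1 CPM. Of the markers of other cell types, 11 of 12 for fibroblasts (8 at 0), 13 of 16 for immune cells (8 at 0), 7 of 8 for endothelium (5 at 0) and 14 of 14 for acinar and endocrine cells (11 at 0) stayed below 1 CPM in all 4 libraries. The summed fibroblast markers reached 4.84 and 3.92 CPM off doxycycline and 2.87 and 2.66 CPM on it, and the immune markers 35.5 and 37.4 CPM off it and 19.2 and 21.9 CPM on it. The endothelial markers summed to 6.74 and 7.22 CPM off doxycycline and 0.662 and 0.826 CPM on it, nearly all from Cdh5.

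Withdrawal moved most of the transcriptome. At an adjusted p under 0.05 (edgeR quasi-likelihood test, Benjamini-Hochberg over all genes tested), 10970 genes or 73.5% were called, 5557 higher (37.3%) and 5413 lower (36.3%) off doxycycline. The median log2 change over all genes tested was 0.02, and 27.8% of genes were called and moved by more than 1 on the log2 scale, 2306 of them higher and 1841 lower. TMM scaling centres the bulk of genes near 0, so this median and the balance of higher and lower calls are in part set by it. Each change is relative to the rest of the library, and total RNA per cell was not measured. The libraries of the 2 groups did not overlap for 12902 genes (86.5%). With so large a background, a gene list is described below by its counts and its median, which are to be read against these shares. In a principal component analysis of the 8 libraries the first component held 83.8% of the variance and split the libraries off doxycycline from those on it.

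**Figure D1:**
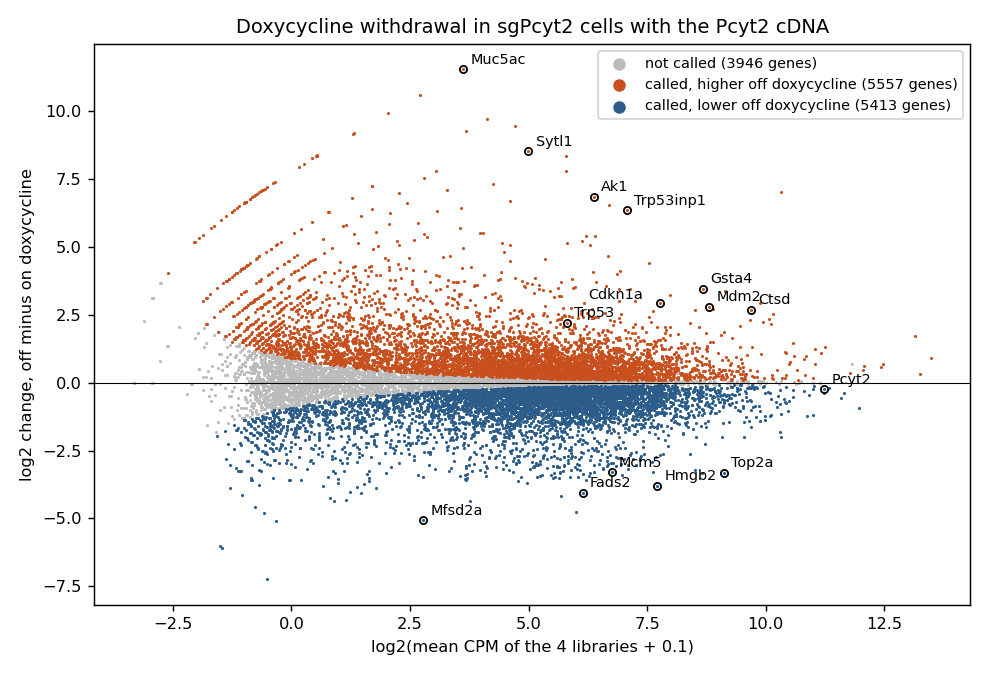
Log2 change of each of the 14916 genes tested (off minus on doxycycline, with the Pcyt2 cDNA, 2 libraries a group) against log2 of the mean CPM of the 4 libraries plus 0.1. The 5557 genes called higher are orange, the 5413 called lower are blue and the rest grey, and named genes are circled, among them Ak1 at 6.85, Trp53inp1 at 6.36, and Mfsd2a at −5.08.

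Trp53 (ENSMUSG00000059552.13), at chr11:69580359-69591872, plus strand (mm10), measured 97.2 and 86.8 CPM off doxycycline, against 19.3 and 20.2 CPM on it. The libraries off doxycycline were all higher, and the log2 change was 2.21 ± 0.074 (± approximate SE, edgeR adjusted p = 2.3e-29), which checks the labels. This SE, used for all log2 changes and differences, is the absolute value divided by the square root of the F statistic of its test. Without the cDNA it measured 42.1 and 41.7 CPM off doxycycline, against 22.7 and 19.2 CPM on it, a log2 change of 1.00, and the withdrawal effect was larger with the cDNA by 1.21 ± 0.12 (adjusted p = 9.7e-12 for the difference). In unedited cells Trp53 averaged 258 ± 5.85 CPM off doxycycline, against 21.1 ± 0.721 CPM on it (SD, n = 3 each) at 10 days. Pcyt2 (ENSMUSG00000025137.15), at chr11:120610087-120617936, minus strand, measured 2202 and 2193 CPM off doxycycline, against 2636 and 2588 CPM on it with the cDNA, and 21.3 and 17.7 CPM off doxycycline, against 28.6 and 28.5 CPM on it without it. With the cDNA its RNA thus stayed high in all 4 libraries and fell by 0.25 ± 0.040 on withdrawal (adjusted p = 3e-07). In unedited cells Pcyt2 averaged 86.3 ± 3.46 CPM off doxycycline, against 109 ± 4.51 CPM on it (SD, n = 3 each) at 10 days. The level with the cDNA was thus far above that of unedited cells, and not a return to it. What this excess does to the other genes was not tested. Reads of the cDNA and of the edited endogenous gene were not separated, and the counts do not measure the edit.

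Genes known as p53 targets rose in most lists. Over 6 lists, with each gene taken once, 65 of 97 tested genes were called higher and 20 lower. These lists partly hold genes that earlier results of the same data had shown to rise, so their counts are a description. Mdm2, the ubiquitin ligase that degrades p53, measured 783 and 781 CPM off doxycycline, against 110.0 and 115 CPM on it. Ccng1, which encodes cyclin G1, measured 1627 and 1639.6 CPM off doxycycline, against 347 and 339.6 CPM on it. Both were several-fold higher in each library off doxycycline, with log2 changes of 2.79 ± 0.043 and 2.25 ± 0.041. The RNA-binding factor Zmat3 had a log2 change of 2.22 ± 0.045 and Phlda3, an inhibitor of AKT, one of 1.74 ± 0.055. In the whole list of feedback regulators 8 of 11 rose and 2 fell, with a median of 0.61. Usp7, whose product removes ubiquitin from Mdm2 and p53, was the furthest down, with a fall of 0.92 ± 0.044, and without replicate 1 off doxycycline 1 fell.

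Promoter windows of Ccng1 and Mdm2 are shown because both genes rose and hold a match to the half-site consensus of p53, in capitals. They are the 250 bases before each gene's start, from RefSeq on GRCm38.p6, and read 5′ to 3′ along the gene's strand.
Ccng1: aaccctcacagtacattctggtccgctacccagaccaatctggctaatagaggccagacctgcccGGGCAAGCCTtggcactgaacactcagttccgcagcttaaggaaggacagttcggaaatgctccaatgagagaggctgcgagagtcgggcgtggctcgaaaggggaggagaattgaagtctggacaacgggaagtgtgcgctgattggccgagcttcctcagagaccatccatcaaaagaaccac
Mdm2: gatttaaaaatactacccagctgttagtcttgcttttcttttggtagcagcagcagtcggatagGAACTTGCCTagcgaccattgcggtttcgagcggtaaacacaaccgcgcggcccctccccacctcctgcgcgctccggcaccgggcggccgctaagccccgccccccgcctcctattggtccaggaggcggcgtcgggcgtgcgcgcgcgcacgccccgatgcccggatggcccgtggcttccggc
The windows lie at chr11:40755287-40755536, minus strand, and at chr10:117710759-117711008, minus strand. The consensus was searched on both strands, and 15 of 81 p53-list genes with a window held it (18.5%), against 736 of 10031 tested genes (7.34%). A match describes the letters of a half-site only and does not show that p53 binds there. A gene with or without one may hold a site elsewhere.

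Among 16 genes of cell-cycle arrest 9 rose and 5 fell, with a median of 0.67. Cdkn1a, which encodes p21, measured 383 and 392 CPM off doxycycline, against 49.2 and 50.8 CPM on it, a 7.74-fold difference with no overlap (log2 2.95 ± 0.047, adjusted p = 4.4e-42). Btg2, an antiproliferative partner of the CCR4-NOT deadenylase, measured 201 and 189 CPM off doxycycline, against 8.53 and 7.02 CPM on it (log2 4.66 ± 0.076). Cyclin D2, from Ccnd2, moved with them and measured 1838 and 1797 CPM off doxycycline, against 412 and 394 CPM on it. The CDK4/6 inhibitor gene Cdkn2c went the other way and measured 3.01 and 2.05 CPM off doxycycline, against 18.3 and 18.9 CPM on it, with a fall of 2.88 ± 0.16. Cdkn1b, the gene of p27, also fell, by 1.47 ± 0.060, and Cdkn2b rose by 1.04 ± 0.052.

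Genes of apoptosis were higher without exception among those called, 15 of 17 with none lower and a median of 0.79. The BH3-only gene Pmaip1 (Noxa) measured 41.6 and 41.3 CPM off doxycycline, against 6.91 and 7.08 CPM on it. The other BH3-only gene shown, Bbc3 (Puma), measured 31.3 and 29.6 CPM off doxycycline, against 6.84 and 7.79 CPM on it. Both pairs stood apart, with log2 changes of 2.56 ± 0.10 and 2.05 ± 0.11. The death receptor gene Fas measured 16.0 and 16.6 CPM off doxycycline, against 0.147 and 0 CPM on it. It had 510 counts off and 2 counts on doxycycline, a ratio of 248 with a 95% counting interval of 68.4 to 2056. Pidd1, a scaffold that activates caspase-2, rose by 1.91 ± 0.085, and Bax, the pore-forming effector, by 0.68 ± 0.047. Of the anti-apoptotic genes in the list, Mcl1 rose by 0.44 ± 0.039 and Bcl2l1 by 0.29 ± 0.043, and Triap1 was not called (0.068 ± 0.10, adjusted p = 0.56).

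Metabolic and stress targets had the highest median of the 27 lists, 1.68, with 14 of 21 higher and 5 lower. Ak1, an adenylate kinase, measured 163 and 165 CPM off doxycycline, against 1.54 and 1.30 CPM on it. Trp53inp1, a stress protein linked to autophagy, measured 268 and 262 CPM off doxycycline, against 3.82 and 2.72 CPM on it. Each was at most a few CPM while p53 was silenced and more than 100 CPM in both libraries off doxycycline. Dcxr, a carbonyl and xylulose reductase, measured 74.7 and 81.7 CPM off doxycycline, against 3.60 and 3.13 CPM on it. Ckmt1, a mitochondrial creatine kinase, had no count on doxycycline and was at least 130.5-fold higher off it, against a floor of 3 counts over the 2 libraries. Ephx1, microsomal epoxide hydrolase, measured 349.6 and 359 CPM off doxycycline, against 16.3 and 17.2 CPM on it. The sestrin genes Sesn2 and Sesn3 rose by 2.08 ± 0.061 and 3.15 ± 0.084, and Ddit4, which restrains mTORC1, by 3.29 ± 0.10. Pank1, a pantothenate kinase of coenzyme A synthesis, fell by 2.30 ± 0.12, and Tigar, a fructose bisphosphatase, by 0.56 ± 0.073.

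DNA repair targets split. The endonuclease gene Ercc5 measured 116 and 123 CPM off doxycycline, against 22.0 and 22.5 CPM on it, and the translesion polymerase gene Polk 101 and 98.8 CPM off doxycycline, against 22.6 and 24.0 CPM on it. Polh, another translesion polymerase, measured 10.3 and 10.5 CPM off doxycycline, against 34.5 and 36.7 CPM on it, and the sliding clamp Pcna 83.0 and 80.2 CPM off doxycycline, against 290.5 and 289 CPM on it. Ercc5 and Polk were thus higher, Polh and Pcna lower, and 4 of the 10 list members rose against 5 that fell, with a median of −0.14. Among 23 other targets 16 rose and 3 fell, with a median of 0.88. Sytl1, which encodes a synaptotagmin-like protein of vesicle transport, measured 64.2 and 62.4 CPM off doxycycline, against 0.147 and 0.177 CPM on it, Zfp365 rose by 4.68 ± 0.21, and the ratio for the anoctamin gene Ano3 was 801 (221 to 6616) from 1644 and 2 counts.

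**Figure D2:**
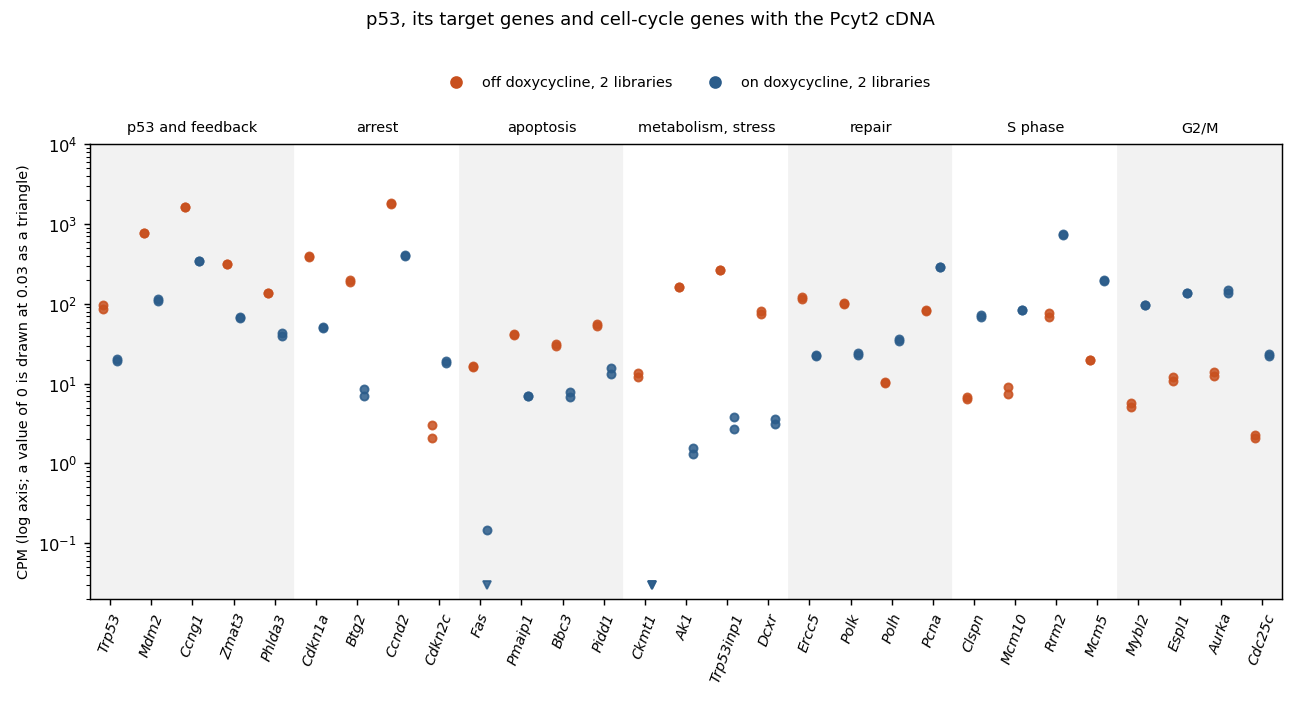
CPM on a log axis of Trp53, p53 targets, S-phase and G2/M genes in each library with the Pcyt2 cDNA, with off doxycycline (orange, 2 libraries) left of on doxycycline (blue, 2 libraries). No gene shown has overlapping groups, and the S-phase and G2/M genes run the other way from Cdkn1a and Mdm2.

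Genes of DNA replication fell. Of 45 genes 44 were lower and none higher off doxycycline, with a median of −2.37. The replicative helicase gene Mcm5 measured 19.9 and 19.8 CPM off doxycycline, against 194 and 196 CPM on it. Mcm10, which helps start replication, measured 9.02 and 7.47 CPM off doxycycline, against 83.4 and 83.8 CPM on it, and the checkpoint adaptor gene Clspn 6.47 and 6.85 CPM off doxycycline, against 72.0 and 69.3 CPM on it. In each of them both libraries off doxycycline were far below both on it, with log2 changes of −3.29 ± 0.062, −3.34 ± 0.085 and −3.40 ± 0.089. Rrm2, the small subunit of ribonucleotide reductase, fell by 3.33 ± 0.12 and the cyclin gene Ccne1 by 2.91 ± 0.093. Gins2, of the helicase's GINS partner, was the 1 member not called, with a log2 change of 0.016 ± 0.053 and an adjusted p of 0.79. The libraries are bulk RNA, so fewer cells in a phase and less RNA per cell cannot be told apart.

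All 44 genes of G2 and mitosis fell, with a median of −2.98 and a range of log2 changes from −4.18 to −2.34. Mybl2, whose product joins the MuvB core to activate late cell-cycle genes, measured 5.03 and 5.66 CPM off doxycycline, against 96.2 and 97.5 CPM on it. Espl1, which encodes separase, measured 12.0 and 10.8 CPM off doxycycline, against 135 and 138 CPM on it, and the spindle kinase gene Aurka 13.9 and 12.4 CPM off doxycycline, against 136 and 148 CPM on it. None of these groups overlapped, and the changes were −4.17 ± 0.087, −3.58 ± 0.070 and −3.44 ± 0.074. Cdk1 fell by 2.85 ± 0.055, Ccnb1 by 3.39 ± 0.062, Top2a by 3.32 ± 0.050 and the proliferation marker Mki67 by 3.23 ± 0.087.

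Windows of Cdk1 and Espl1 are shown for the cell cycle homology region (CHR), the letters TTTGAA in capitals, which the DREAM complex is known to bind, and Mcm5 for an E2F motif, TTTGGCGC or TTTCGCGC.
Cdk1: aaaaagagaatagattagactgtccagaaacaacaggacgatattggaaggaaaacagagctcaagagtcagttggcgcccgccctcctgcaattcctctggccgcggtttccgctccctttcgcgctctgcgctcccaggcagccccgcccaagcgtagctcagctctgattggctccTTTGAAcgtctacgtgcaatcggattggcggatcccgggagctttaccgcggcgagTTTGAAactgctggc
Espl1: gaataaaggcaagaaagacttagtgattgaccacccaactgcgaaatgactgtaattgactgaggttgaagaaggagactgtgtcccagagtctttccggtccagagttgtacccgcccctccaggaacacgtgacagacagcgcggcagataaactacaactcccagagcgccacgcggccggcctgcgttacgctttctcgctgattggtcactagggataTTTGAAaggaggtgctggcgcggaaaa
Mcm5: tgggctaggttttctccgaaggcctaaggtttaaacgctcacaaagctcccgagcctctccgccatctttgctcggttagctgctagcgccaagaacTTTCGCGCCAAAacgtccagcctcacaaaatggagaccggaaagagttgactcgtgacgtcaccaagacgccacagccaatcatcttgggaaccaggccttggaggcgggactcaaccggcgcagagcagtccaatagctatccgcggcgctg
They span chr10:69352913-69353162, minus strand, then chr15:102296043-102296292, plus strand, then chr8:75109259-75109508, plus strand, all 250 bases up to the RefSeq start on GRCm38.p6. In Mcm5 the match reads on both strands, so the capitals run over overlapping copies. Both strands were searched in every window. The CHR stood in 13 of 37 G2/M genes with a window (35.1%), against 13.1% of all tested genes, and the E2F letters in 6 of 36 S-phase genes (16.7%), against 1.46%.

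The ethanolamine branch was mixed, with 6 of 13 genes higher, 5 lower, a median of 0.18 and log2 changes from −1.52 for Phospho1, a phosphatase of phosphoethanolamine and phosphocholine, to 2.63 for Etnk2, another ethanolamine kinase gene. Etnk2 measured 2.35 and 1.80 CPM off doxycycline, against 0.441 and 0.236 CPM on it. Etnk1, the ethanolamine kinase of the first step, measured 327 and 332 CPM off doxycycline, against 221 and 228 CPM on it. Selenoi, the ethanolamine phosphotransferase of the last step, measured 158 and 156 CPM off doxycycline, against 163 and 152 CPM on it. Etnk1 was higher in both libraries off doxycycline (log2 0.55 ± 0.040, adjusted p = 4.5e-17), whereas the Selenoi libraries overlapped (log2 −0.0023 ± 0.045, adjusted p = 0.97, a direction that turned under several alternatives). Cept1, the phosphotransferase shared with the choline branch, measured 84.8 and 84.5 CPM off doxycycline, against 49.5 and 49.2 CPM on it. The carriers that admit choline and ethanolamine went opposite ways, Slc44a1 at 124 and 123 CPM off doxycycline, against 69.7 and 69.4 CPM on it, and Flvcr1 at 14.1 and 11.4 CPM off doxycycline, against 35.4 and 32.5 CPM on it. Pisd, which makes phosphatidylethanolamine from phosphatidylserine in mitochondria, rose by 0.53 ± 0.071 and Ptdss2, a phosphatidylserine synthase, by 0.37 ± 0.10. Exons of other genes cover 24.9% of the exon bases of Cept1 and 15.6% of those of Flvcr1. Reads were counted on both strands, so these genes and their partners are not separated there.

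The choline branch was mostly higher, in 8 of 9 genes with none lower and a median of 0.66. Chka, choline kinase, measured 599 and 595 CPM off doxycycline, against 264 and 263 CPM on it. Pcyt1a, the rate-setting enzyme of that branch, measured 172 and 172 CPM off doxycycline, against 103 and 105 CPM on it. Both pairs of libraries were tight and apart, with log2 changes of 1.18 ± 0.039 and 0.73 ± 0.046. Slc44a2, a choline transporter-like protein, rose by 0.78 ± 0.054, the carnitine carrier gene Slc22a5 by 0.66 ± 0.11 and the phosphotransferase gene Chpt1 by 0.57 ± 0.11.

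Genes that break phospholipids down or release their headgroups mostly rose, 27 of 35 with 6 lower and a median of 0.53. Abhd4, a lipase that removes acyl chains from N-acyl phosphatidylethanolamine, measured 258 and 257 CPM off doxycycline, against 26.2 and 21.5 CPM on it. Pld3, a lysosomal member of the phospholipase D family, measured 58.1 and 54.0 CPM off doxycycline, against 12.2 and 12.2 CPM on it. Abhd12, a lysophosphatidylserine lipase, measured 389.6 and 382 CPM off doxycycline, against 109 and 122 CPM on it. The 3 were higher in both libraries off doxycycline, with log2 changes of 3.44 ± 0.059, 2.20 ± 0.084 and 1.74 ± 0.050. Gdpd5, a phosphodiesterase of glycerophosphocholine, was the furthest up, with 8.50 and 7.47 CPM off doxycycline, against 0 and 0 CPM on it. Phospholipases D1 and D2 rose by 0.93 ± 0.088 and 1.03 ± 0.067, the acid sphingomyelinase gene Smpd1 by 0.97 ± 0.078, the glycerophosphocholine phosphodiesterase gene Gpcpd1 by 0.56 ± 0.10 and the lysosomal phospholipase gene Pla2g15 by 0.34 ± 0.089. Smpdl3b, a membrane-anchored relative of acid sphingomyelinase, fell and measured 8.11 and 6.60 CPM off doxycycline, against 29.5 and 32.9 CPM on it. Glycerolipid genes that reuse the products were even, 12 of 26 higher and 10 lower with a median of −0.0023. Lpin1, which makes diacylglycerol from phosphatidate, measured 77.9 and 75.2 CPM off doxycycline, against 18.2 and 18.8 CPM on it. Agpat4 rose by 1.92 ± 0.080, the lipid droplet coat gene Plin2 by 1.33 ± 0.043 and Dgat2, of triglyceride synthesis, by 1.25 ± 0.19, while Lpcat1 fell by 1.14 ± 0.10.

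Lysosomal genes rose together, 41 of 44 with none lower and a median of 1.03, and without replicate 1 on doxycycline 1 member was lower. The aspartic protease gene Ctsd measured 1428 and 1442 CPM off doxycycline, against 226 and 218 CPM on it. Tpp1, a lysosomal tripeptidase, measured 336 and 332 CPM off doxycycline, against 80.9 and 80.4 CPM on it. Hexa, the alpha subunit of beta-hexosaminidase, measured 33.5 and 37.4 CPM off doxycycline, against 7.79 and 7.50 CPM on it, and Dpp7 rose by 2.03 ± 0.077. The libraries off doxycycline were the higher in each, with changes of 2.69 ± 0.040, 2.05 ± 0.044 and 2.22 ± 0.10. Ctsf, another cathepsin gene, measured 8.04 and 8.34 CPM off doxycycline, against 0.147 and 0.0590 CPM on it, the largest relative change of the list. Psap, the precursor of the saposins, rose by 1.65 ± 0.039, Lamp1 of the lysosomal membrane by 0.59 ± 0.037 and the cholesterol exporter gene Npc1 by 0.51 ± 0.073. Of the factors that drive lysosomal genes, Tfe3 rose by 0.16 ± 0.062 and Tfeb was not called (−0.27 ± 0.13, adjusted p = 0.061). Exons of a partner cover 34.4% of the exon bases of Ctsd and 12.8% of those of Hexa.

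The Ctsd window carries a pair of matches to GTCACGTG, the core of the CLEAR motif to which TFEB and TFE3 are known to bind, shown in capitals on the opposite strand as CACGTGAC.
Ctsd: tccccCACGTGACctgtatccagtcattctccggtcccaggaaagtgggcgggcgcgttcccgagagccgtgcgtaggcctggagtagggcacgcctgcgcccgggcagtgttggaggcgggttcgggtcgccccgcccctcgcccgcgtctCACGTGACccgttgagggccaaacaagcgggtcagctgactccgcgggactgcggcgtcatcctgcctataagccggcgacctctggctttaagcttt
It lies at chr7:142387828-142388077, minus strand of GRCm38.p6. The motif stood in 10 of 37 lysosomal genes with a window (27.0%), against 3.93% of all tested genes.

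Sterol genes fell. Of 27 genes of sterol synthesis and uptake 24 were lower and 2 higher, with a median of −1.66. Tmem97, a sterol-binding membrane protein gene, measured 11.1 and 11.6 CPM off doxycycline, against 95.8 and 94.9 CPM on it. The isoprenoid enzyme genes Idi1 and Fdps fell by 2.90 ± 0.088 and 2.75 ± 0.059, and 26.7% of the exon bases of Fdps are shared with a partner. The squalene epoxidase gene Sqle fell by 2.29 ± 0.059 and the regulator gene Srebf2 by 0.67 ± 0.040. The 2 that rose were Tm7sf2, a sterol reductase gene, by 0.52 ± 0.10, and the cholesterol exporter gene Abca1, which measured 0.262 and 0.373 CPM off doxycycline, against 0 and 0 CPM on it. Abca1 was thus near the floor in every library, and its call rests on few counts.

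Among 19 genes of fatty acid synthesis and desaturation 12 fell and 5 rose, with a median of −0.27 and a long lower tail. Fads2, the first desaturase of polyunsaturated fatty acids, measured 8.83 and 7.22 CPM off doxycycline, against 140.0 and 126 CPM on it. Fads1, the next desaturase of that pathway, measured 12.1 and 13.3 CPM off doxycycline, against 118 and 114 CPM on it, and the stearoyl desaturase gene Scd2 560.5 and 543 CPM off doxycycline, against 2021 and 1907 CPM on it. All 3 were lower in both libraries off doxycycline, by 4.05 ± 0.083, 3.19 ± 0.071 and 1.83 ± 0.041. Elovl6 fell by 1.61 ± 0.057, Fasn by 1.01 ± 0.039 and Acaca by 1.32 ± 0.054, while Acss2, a cytosolic acetyl-CoA synthetase gene, rose by 0.91 ± 0.10.

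Receptors for lipid and macromolecule uptake mostly rose, 10 of 14 with 3 lower and a median of 0.75. Lrp1, a large endocytic receptor, measured 125 and 129 CPM off doxycycline, against 16.2 and 16.7 CPM on it. Vldlr, the receptor of very low density lipoprotein, measured 26.4 and 26.4 CPM off doxycycline, against 3.82 and 5.14 CPM on it, and the heparan sulfate proteoglycan gene Sdc1 966 and 1027 CPM off doxycycline, against 410.2 and 397 CPM on it. Mfsd2a, a carrier of lysophosphatidylcholine, had the lowest log2 change of the genes named here, with 0.523 and 0.249 CPM off doxycycline, against 12.7 and 13.6 CPM on it (log2 −5.08 ± 0.26, adjusted p = 1.7e-22). The scavenger receptor gene Scarb1 fell by 0.99 ± 0.079.

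**Figure D3:**
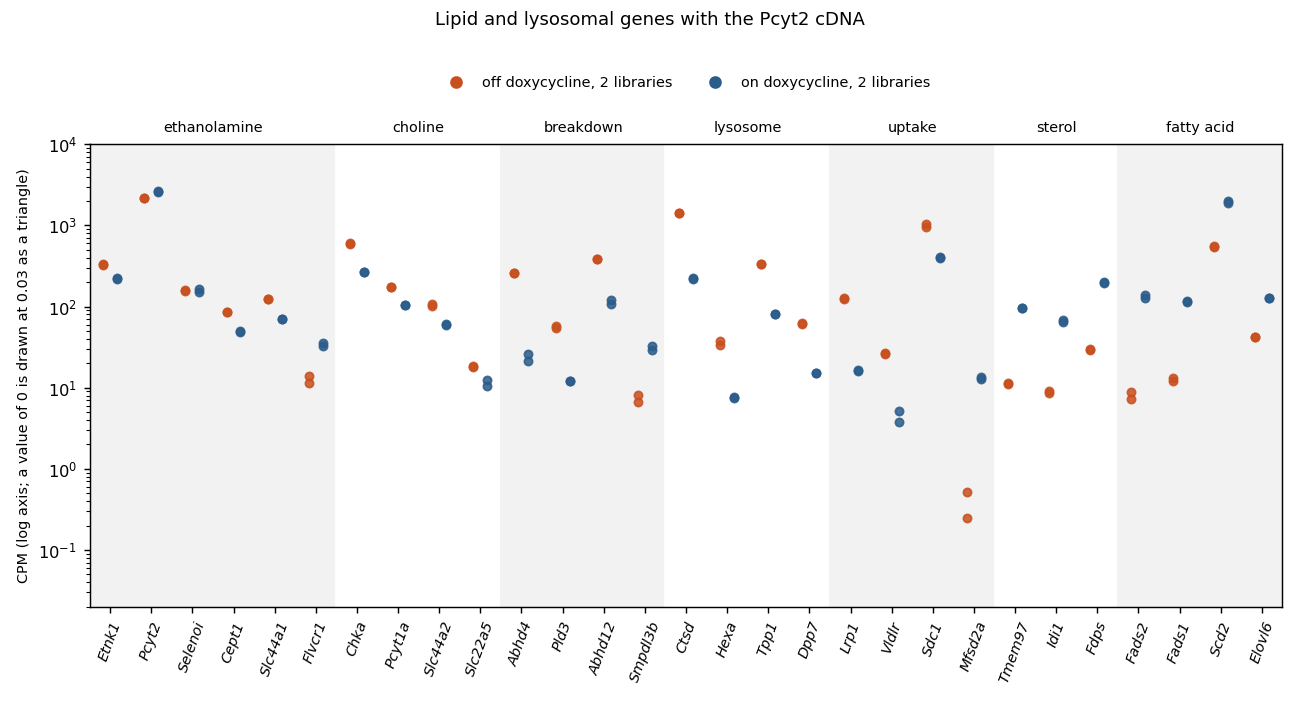
CPM on a log axis of genes of the ethanolamine and choline branches, phospholipid breakdown, lysosome, lipid uptake, sterol and fatty acid synthesis in each library with the Pcyt2 cDNA, with off doxycycline (orange, 2 libraries) left of on doxycycline (blue, 2 libraries). Selenoi alone has overlapping groups, the choline, lysosomal and uptake genes other than Mfsd2a are higher off doxycycline, and the sterol and fatty acid genes are lower.

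Genes of the amino acid stress response, targets of ATF4, were lower in 20 of 31 cases and higher in 9, with a median of −0.82. Mthfd2, the mitochondrial folate enzyme, measured 7.65 and 8.21 CPM off doxycycline, against 92.6 and 90.7 CPM on it. Slc7a5, a carrier of large neutral amino acids, measured 30.7 and 32.0 CPM off doxycycline, against 217 and 213 CPM on it. Psat1, of serine synthesis, measured 96.3 and 91.7 CPM off doxycycline, against 597 and 576 CPM on it. These 3 were lower in both libraries off doxycycline, by 3.53 ± 0.081, 2.78 ± 0.056 and 2.64 ± 0.046, and Atf4 itself fell by 1.29 ± 0.044. The cystine carrier gene Slc7a11 rose by 0.73 ± 0.075. Of 24 genes of folding in the endoplasmic reticulum 12 fell and 5 rose, with a median of −0.12 and 70.8% called, below the 73.5% of all genes. Manf, a secreted chaperone-like factor, fell by 1.16 ± 0.057, Creld2 by 0.94 ± 0.072 and the chaperone gene Hyou1 by 0.79 ± 0.045, and the co-chaperone gene Dnajb9 rose by 1.71 ± 0.094.

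Glycolysis and the pentose phosphate pathway were lower in 17 of 26 genes and higher in 6 (3 without replicate 1 off doxycycline), with a median of −0.46. G6pdx, which opens the pentose phosphate pathway and shares 13.6% of its exon bases with a partner, measured 22.9 and 23.6 CPM off doxycycline, against 80.8 and 77.7 CPM on it. Eno1, enolase, measured 688 and 655 CPM off doxycycline, against 1523 and 1553 CPM on it. Rpia and the lactate carrier gene Slc16a1 fell by 1.67 ± 0.10 and 1.53 ± 0.046, Gapdh by 1.17 ± 0.042, and Hk1 rose by 0.69 ± 0.038. In the TCA cycle and respiratory chain 26 of 31 genes fell and 3 rose, with a median of −0.38. As a share of all counts, genes of the mitochondrial chromosome went the other way. They took 3.34% and 3.33% off doxycycline, against 2.00% and 1.95% on it. The mitochondrial isocitrate dehydrogenase genes Idh2 and Idh3a fell by 1.33 ± 0.058 and 1.25 ± 0.059 and Got1 by 1.21 ± 0.057. Idh1, the cytosolic form that yields NADPH, rose and measured 166 and 159 CPM off doxycycline, against 68.4 and 66.9 CPM on it.

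Antioxidant genes were higher in 14 of 24 cases and lower in 5, with a median of 0.43. The glutathione transferase gene Gsta4 measured 747 and 759 CPM off doxycycline, against 67.3 and 69.5 CPM on it, and its relative Gsta1 226 and 237 CPM off doxycycline, against 11.3 and 14.8 CPM on it. Gsto1, of the omega class, measured 1918 and 1959 CPM off doxycycline, against 336 and 343 CPM on it. The libraries off doxycycline were several-fold higher in all 3, with changes of 3.46 ± 0.045, 4.13 ± 0.070 and 2.51 ± 0.041. The carbonyl reductase gene Cbr1 rose by 2.29 ± 0.11, Gclc, of glutathione synthesis, by 2.05 ± 0.050, and Gpx4, which reduces lipid peroxides, by 0.92 ± 0.040, whereas the thioredoxin gene Txn1 fell by 1.36 ± 0.042.

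RAS-MAPK genes were divided, 10 of 26 higher and 11 lower, with a median of −0.08. Egfr, the epidermal growth factor receptor, measured 87.4 and 84.8 CPM off doxycycline, against 17.4 and 16.6 CPM on it. The feedback inhibitor gene Spred3 rose by 1.43 ± 0.10 and the MAPK phosphatase gene Dusp6 by 0.85 ± 0.038. Another inhibitor gene, Spry1, fell by 1.70 ± 0.14, and the AP-1 factor gene Fosl1 measured 67.7 and 64.9 CPM off doxycycline, against 143 and 145 CPM on it, with 57.2% of its exon bases and 24.4% of those of Spry1 shared with a partner. In the interferon and MHC class I list 10 of 15 rose and 2 fell, with a median of 0.38. The antiviral gene Mx1 measured 2.75 and 3.67 CPM off doxycycline, against 0.0735 and 0 CPM on it, and Irf7, a regulator of interferon genes, 7.45 and 6.29 CPM off doxycycline, against 0.662 and 0.767 CPM on it. The class I gene H2-T23 rose by 2.56 ± 0.083, Ifi27 by 1.91 ± 0.20 and the peptide-loading factor gene Tapbp by 1.83 ± 0.087, and H2-D1, another class I gene, fell by 1.05 ± 0.075. Partner exons cover 29.0% of Tapbp.

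Secreted and matrix genes went both ways. Of 12 secreted inflammatory factors 7 rose and 2 fell, with a median of 0.49. The macrophage growth factor gene Csf1 measured 13.1 and 14.7 CPM off doxycycline, against 40.6 and 36.8 CPM on it, and osteopontin, from Spp1, 58.9 and 63.0 CPM off doxycycline, against 107 and 114 CPM on it. A partner shares 18.8% of the exon bases of Spp1. The interleukin gene Il18 measured 6.08 and 6.35 CPM off doxycycline, against 0.147 and 0 CPM on it. The cytokine genes Lif and Tgfb1 rose by 0.63 ± 0.069 and 0.67 ± 0.093. Of 20 matrix genes and proteases 11 rose and 8 fell, with a median of 0.20. The collagenase gene Mmp13 measured 15.8 and 19.1 CPM off doxycycline, against 66.1 and 76.6 CPM on it. The matrix crosslinker gene Loxl2 fell by 1.70 ± 0.12, while Plat, tissue plasminogen activator, rose by 1.39 ± 0.061 and Timp2 by 1.31 ± 0.041.

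Epithelial and ductal genes were higher in 14 of 22 cases and lower in 2 (1 without any 1 of replicate 1 on, replicate 1 off or replicate 2 off doxycycline), with a median of 0.49. Muc5ac, a gel-forming mucin gene, measured 23.3 and 25.6 CPM off doxycycline, against 0 and 0 CPM on it, at least 249.7-fold higher against the floor of 3 counts. The duct keratin gene Krt19 measured 3456 and 3463 CPM off doxycycline, against 1398 and 1379.7 CPM on it, and the junction genes Ocln and Dsp rose by 1.15 ± 0.062 and 1.05 ± 0.040. Of 12 mesenchymal genes 6 fell and 2 rose (1 without replicate 2 on doxycycline), with a median of −0.13. The transcription factor genes Twist1 and Snai2 fell by 2.00 ± 0.18 and 0.65 ± 0.17, and fibronectin, from Fn1, measured 204 and 193 CPM off doxycycline, against 99.9 and 91.3 CPM on it. Sparc, a matrix glycoprotein gene, measured 30.5 and 24.9 CPM off doxycycline, against 41.7 and 44.0 CPM on it, a fall of 0.63 ± 0.15 (adjusted p = 0.0047) that was lost without replicate 2 on doxycycline (adjusted p = 0.0601) and with DESeq2 (adjusted p = 0.0637).

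**Figure D4:**
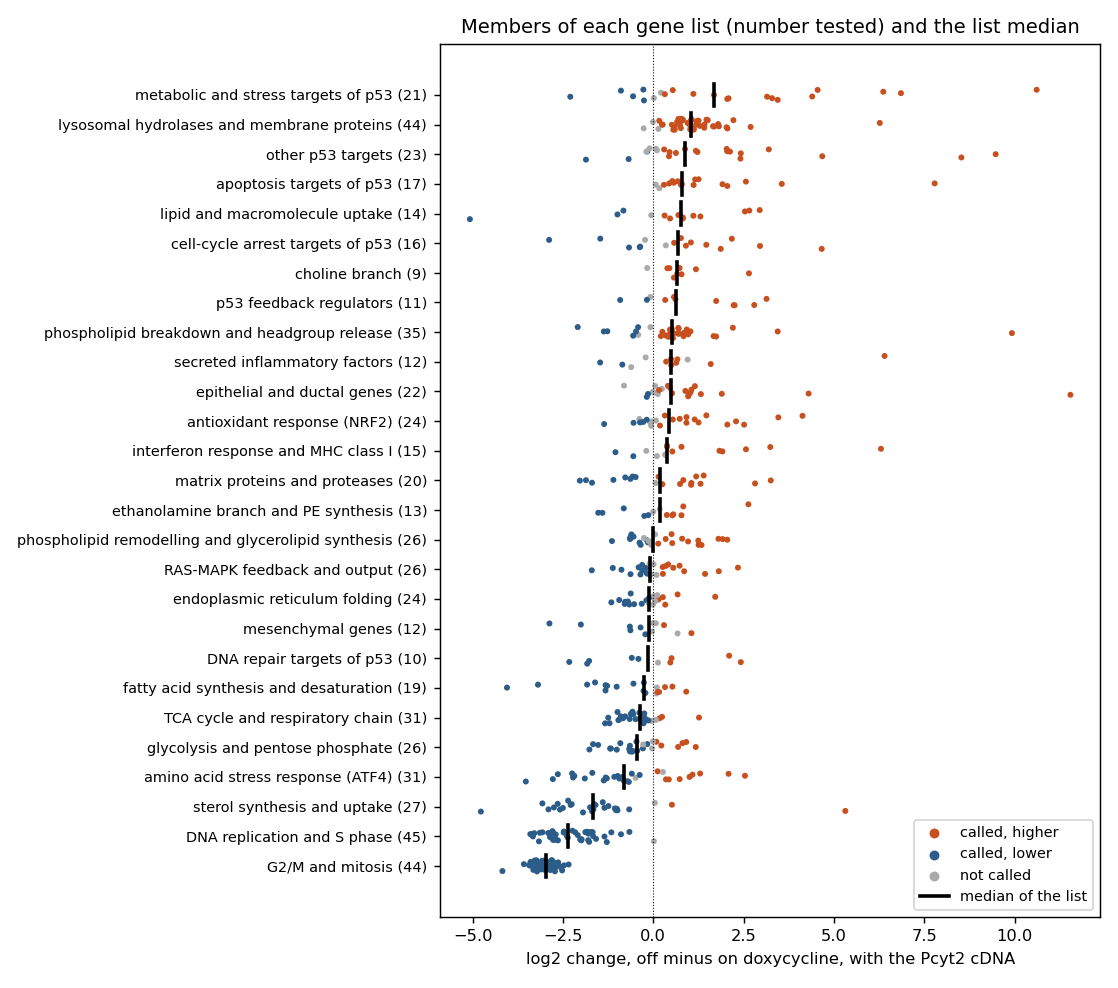
Log2 change (off minus on doxycycline, with the Pcyt2 cDNA) of every tested member of the 27 gene lists, with the number tested in brackets and a black bar at the list median. Medians run from 1.68 for metabolic and stress targets of p53 to −2.98 for G2/M genes, and points are orange or blue where called higher or lower and grey where not called.

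Over all genes, the highest and lowest changes were ranked among called genes with a mean of at least 5 CPM over the 4 libraries and no overlap between the groups. Such a ranking favours genes near 0 on doxycycline, so it is by this choice that the highest 10 were nearly without counts there. Muc5ac, Ckmt1, Ano3, Sytl1 and Fas, given above, were 5 of them. In unedited cells on doxycycline Muc5ac averaged 2.96 ± 0.746 CPM and Ivl, another of the 10, 9.83 ± 1.05 CPM (SD, n = 3). Low levels on doxycycline were thus not shared by all 10 in that table. Ms4a10 and Ms4a8a, of the membrane-spanning 4A family, had ratios of 1058 (189 to 41810.0) and 780.1 (139.6 to 30850.0), each from 1 count on doxycycline. Sec14l5, which encodes a lipid-binding SEC14-like protein, had a ratio of 209 (57.5 to 1731). The receptor gene Lilr4b measured 101 and 119 CPM off doxycycline, against 0.147 and 0.472 CPM on it, and Ivl, involucrin of the cornified envelope, 103 and 118 CPM off doxycycline, against 0.441 and 0.531 CPM on it. Mfsd2a, Mybl2, Fads2 and Espl1, described above, were among the lowest 10 under the same limits. The helicase gene Recql4 measured 1.11 and 1.37 CPM off doxycycline, against 26.8 and 24.5 CPM on it, the chromatin protein gene Hmgb2 30.3 and 26.4 CPM off doxycycline, against 388 and 395 CPM on it, and Ticrr, which starts replication, 4.97 and 3.98 CPM off doxycycline, against 55.2 and 60.1 CPM on it. Troap fell by 3.62 ± 0.11 and Depdc1b by 3.59 ± 0.17, both genes known for a role in dividing cells. Several of these genes (the Ms4a pair, Lilr4b, Gsta1, Gsta4, Hmgb2, the H2 genes) have close relatives, and how reads that match several genes were counted is not given in the sources used here, so their levels are uncertain.

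The same withdrawal without the cDNA called 11376 genes (76.3%), and 31.4% of genes were called and moved by more than 1 on the log2 scale. Both withdrawals called 9697 genes, 9418 of them in the same direction and 279 in opposite ones, and the log2 changes had r = 0.875 across the 14916 genes, which are not independent replicates. The difference between the withdrawal effects was called for 3759 genes (25.2%), 1850 above 0 (12.4%) and 1909 below 0 (12.8%). DESeq2 called fewer, 1233 above 0 and 1003 below. Of the 3759 genes, 828 moved the same way in both and more with the cDNA, 1550 moved the same way and less with it, 279 moved in opposite directions and 1102 were called in at most 1 of the withdrawals.

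For the induction of Cdkn1a the difference was 0.94 ± 0.066 and for Mdm2 0.71 ± 0.060 (adjusted p = 6.3e-16 and 2.2e-13), both higher with the cDNA. Without it Cdkn1a measured 291 and 302 CPM off doxycycline, against 72.7 and 74.6 CPM on it, and Mdm2 518 and 546 CPM off doxycycline, against 124 and 128 CPM on it. Pmaip1 and Btg2 had differences of 1.20 ± 0.15 and 0.87 ± 0.14, whereas Ccng1 (0.074 ± 0.056, adjusted p = 0.37) and Zmat3 (−0.053 ± 0.066, adjusted p = 0.62) were not called. All 44 G2/M genes fell in both withdrawals, with a median of −2.98 with the cDNA and −3.64 without it. The difference was called above 0 for 39 of these 44, a smaller fall with the cDNA, against 12.4% of all genes. Aurka, for example, measured 6.60 and 8.34 CPM off and 126 and 135 CPM on doxycycline without the cDNA, and its difference was 0.70 ± 0.14 (adjusted p = 9.4e-05). Among matrix genes 13 of 20 differences were above 0 and 1 below, and among RAS-MAPK genes 17 of 26 above and 3 below. Plat rose by 1.39 ± 0.061 with the cDNA and had a log2 change of −0.50 without it, where it measured 52.0 and 51.0 CPM off doxycycline, against 73.7 and 72.2 CPM on it (difference 1.89 ± 0.085). The immediate early factor gene Egr1 measured 30.7 and 29.6 CPM off doxycycline, against 22.5 and 22.8 CPM on it, with the cDNA, and 18.1 and 21.3 CPM off doxycycline, against 64.6 and 61.1 CPM on it, without it, a difference of 2.09 ± 0.12.

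Differences below 0 were called for 12 of 22 epithelial genes, with 1 above 0, and for 13 of 24 antioxidant genes, with 2 above 0, against 12.8% of all genes. Gsta1 measured 192 and 185 CPM off doxycycline, against 3.29 and 2.38 CPM on it, without the cDNA, and its difference was −1.92 ± 0.17. Gsta4 had a difference of −1.38 ± 0.069, Lrp1 one of −1.43 ± 0.12 and Vldlr one of −2.02 ± 0.25, all rising less with the cDNA. The furthest below 0 was the signalling ligand gene Wnt4, at 4.71 and 5.04 CPM off doxycycline, against 0.662 and 0.590 CPM on it, with the cDNA, and 46.9 and 39.1 CPM off doxycycline, against 0.0632 and 0.204 CPM on it, without it (difference −5.32 ± 0.67). Hal, histidine ammonia-lyase, measured 7.26 and 8.65 CPM off doxycycline, against 0.735 and 1.06 CPM on it, with the cDNA, and 47.1 and 42.2 CPM off doxycycline, against 0.379 and 0.204 CPM on it, without it. On doxycycline without the cDNA, Wnt4 had 1 and 3 counts and Hal 6 and 3, so the sizes of both differences are uncertain. The furthest above 0 was Mcpt8, a granule protease gene, at 11.8 and 13.5 CPM off doxycycline, against 5.73 and 5.43 CPM on it, with the cDNA, and 3.67 and 4.38 CPM off doxycycline, against 12.8 and 16.7 CPM on it, without it (difference 3.06 ± 0.22). Lgr6, a receptor of R-spondins, followed with 19.7 and 21.4 CPM off doxycycline, against 2.06 and 2.36 CPM on it, with the cDNA, and 9.07 and 10.3 CPM off doxycycline, against 6.89 and 7.07 CPM on it, without it (difference 2.73 ± 0.22). Along the phospholipid branches 5 of 13 ethanolamine and 3 of 9 choline differences were called, against 25.2% of all genes. The difference was −0.61 ± 0.077 for Slc44a1 (adjusted p = 1.4e-08), 0.36 ± 0.082 for Cept1 and 0.36 ± 0.077 for Slc44a2 (adjusted p = 7e-04 and 3e-04). It was −0.22 ± 0.056 for Etnk1 (adjusted p = 0.0026, lost without replicate 1 off doxycycline with the cDNA at 0.056), 0.067 ± 0.055 for Chka and 0.082 ± 0.066 for Pcyt1a (adjusted p = 0.42 and 0.41).

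Unedited KPsh cells off doxycycline for 10 days were compared in their own table, in which 9063 of 13990 genes were called (64.8%) and 15.1% were called and moved by more than 1 on the log2 scale. The tables share no library and differ in time, so values are set side by side and no difference between them was tested. Of 13470 genes tested in both, 7344 were called in both and 6378 of these (86.8%) in the same direction. The shared genes were 71.0% of those called with the cDNA and 84.2% of those called in unedited cells, and r across genes was 0.660. Some named p53 targets had close log2 changes, Cdkn1a 2.95 with the cDNA and 3.22 in unedited cells, Mdm2 2.79 and 2.74, Ccng1 2.25 and 2.20. Others lay further apart, with Trp53inp1 at 6.36 and 4.37, Cdkn2c at −2.88 and −0.77 and Pcna at −1.83 and −0.23. The antioxidant list had a median of 0.43 with the cDNA and −0.02 in unedited cells. The medians of cell-cycle lists were further from 0 with the cDNA, −2.98 against −0.67 for G2/M and −2.37 against −0.50 for S-phase genes, and those of sterol genes −1.66 against −0.44.

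Some named genes, of matrix and secreted factors and of other kinds, were called in opposite directions in these 2 tables. Outside matrix and secreted factors, Nepn had log2 changes of 2.08 with the cDNA and −2.99 in unedited cells. Hal had 3.11 and −1.74, Ocln 1.15 and −0.39, and H2-D1 −1.05 and 0.47. Matrix and secreted genes themselves went both ways. Plat (1.39 and 1.45), Fn1 (1.05 and 1.46), Lif (0.63 and 1.48) and Tgfb1 (0.67 and 0.86) rose in both. Mmp13 had log2 changes of −2.03 with the cDNA and 1.50 in unedited cells, where it averaged 25.3 ± 1.74 CPM off doxycycline, against 8.89 ± 0.574 CPM on it (SD, n = 3 each). Loxl2 had −1.70 and 1.21, and Csf1 −1.47 and 0.84, in the same order. Spp1 had −0.86 and 1.45, and Sparc −0.63 and 1.46. Without the cDNA these genes from Mmp13 to Sparc fell as well, with −3.94 for Mmp13, −3.15 for Loxl2, −2.10 for Csf1, −1.52 for Spp1 and −1.69 for Sparc. Etnk1 rose with the cDNA (0.55) and without it (0.77) and fell in unedited cells (−0.39). Selenoi, not called with the cDNA, rose without it (0.14) and fell in unedited cells (−0.74). The list medians for matrix genes were 0.20 with the cDNA, −0.48 without it and 1.36 in unedited cells.

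**Figure D5:**
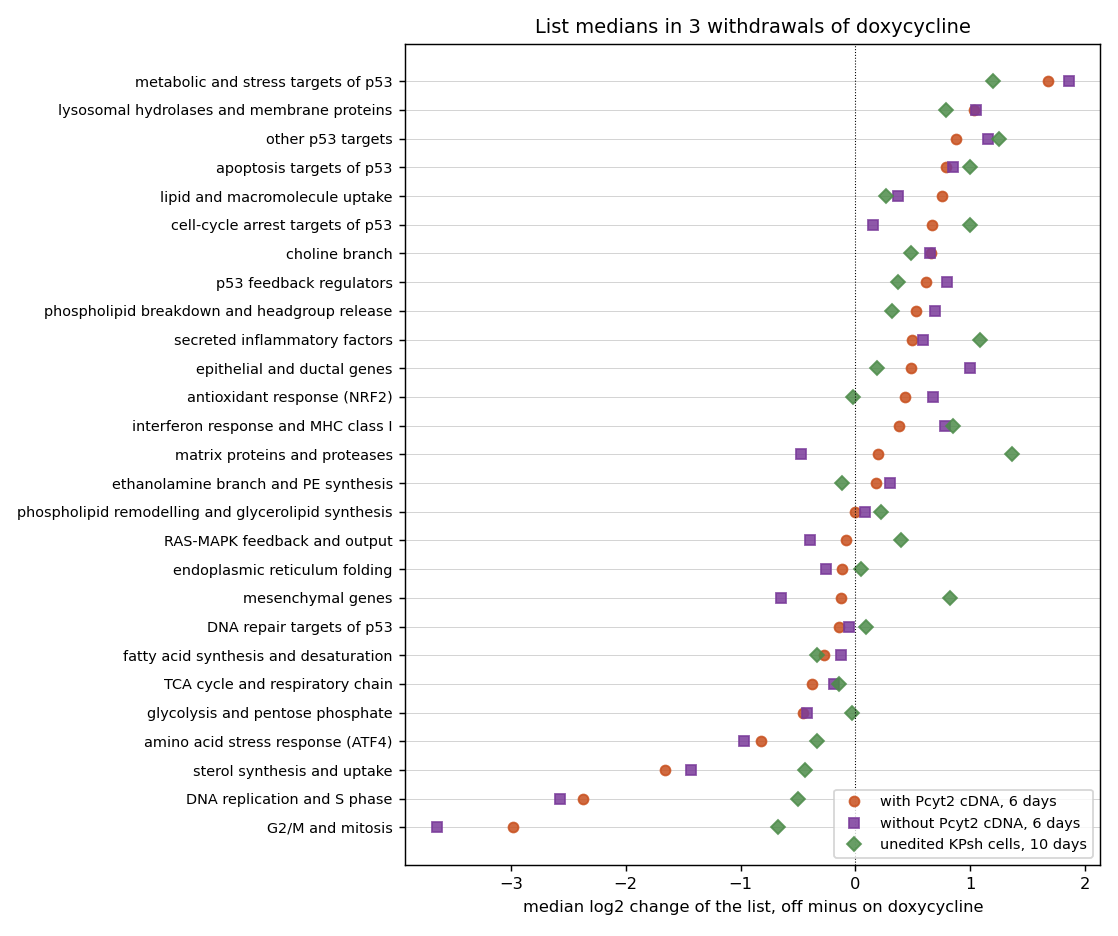
Median log2 change (off minus on doxycycline) of each of the 27 lists in sgPcyt2 cells with the Pcyt2 cDNA (circles, 6 days), in sgPcyt2 cells without it (squares, 6 days) and in unedited KPsh cells (diamonds, 10 days, a separate table). For G2/M genes the medians are −2.98, −3.64 and −0.67, and for matrix genes 0.20, −0.48 and 1.36.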

How the data were processed

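Poly(A) RNA was taken up in TRIzol and made into stranded TruSeq libraries, per the labels' protocols. Per the submitters' processing notes the processing used STAR 2.6.1c, HOMER and mm10. Per the file headers, analyzeRepeats.pl of HOMER gave unadjusted expected counts over the exons of GENCODE vM25 genes, with 1 transcript per gene and reads of both strands counted, so overlapping antisense genes are not separated. The deposited expected counts run in steps of 0.5 and were rounded to whole numbers, which moved no library total by more than 0.0533%. The header columns of the cells with the cDNA, and of the unedited cells off doxycycline, were matched to their samples by elimination.

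Genes passing edgeR's filterByExpr (14916 of 55401) were fitted over the 8 libraries with edgeR 4.0.16 (TMM, robust quasi-likelihood, 4 residual degrees of freedom, biological coefficient of variation 0.0333) in R 4.3.3, with Benjamini-Hochberg adjustment at 0.05 over all genes tested. The code was also run on simulated counts in which a small share of genes changed, with random signs and a common spread. That run cannot test the scaling or the false calls where most genes change, as here. The fit used limma 3.58.1, and DESeq2 1.42.0 was an alternative, beside other scalings and filters, a replicate block, each library left out, and a fit of the 4 libraries alone. Members and lists were chosen with earlier results of these data known. Genes are named by a rule: fixed p53 and Pcyt2 pathway genes, up to 4 called members of each list with the largest changes, the 10 highest and 10 lowest called genes without overlap, and the 6 highest and 6 lowest called differences, all with a mean of at least 5 CPM, except genes that are not reported here. Other list members named in the text were chosen after their values were seen. Exon overlaps come from GENCODE vM21 on mm10, were computed for the genes named by the rule only, and are given above 10%. The other list members were not checked for overlaps. Counting intervals are exact at 95% and cover counting error only.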

Additional observations from a re-analysis of the deposited data

Results flagged for a closer look

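Of the 129 genes named by the rule and reported, 71 had a withdrawal effect that differed between sgPcyt2 cells with and without the Pcyt2 cDNA, by the test of the difference itself (edgeR, adjusted p under 0.05). Values below are log2 differences, the change off minus on doxycycline with the cDNA minus that without it, and 37 were above 0 and 34 below.

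Above 0 among p53 and its targets were Trp53 (1.21), Pmaip1 (1.20), Cdkn1a (0.94), Btg2 (0.87), Mdm2 (0.71), Ercc5 (0.41) and Pidd1 (0.34), all of which rose with the cDNA. Cyclin D2 rose too but less with the cDNA, with a Ccnd2 difference of −0.23. Of the cell-cycle genes Aurka (0.70), Espl1 (0.61), Troap (0.60) and Hmgb2 (0.35) fell less with it.

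Matrix and secreted genes were above 0, with Mmp13 at 1.91, Plat at 1.89, Loxl2 at 1.46, Sparc at 1.06, Fn1 at 0.73, Spp1 at 0.66, Csf1 at 0.62 and Lif at 0.97. Snai2 stood at 0.70 and Twist1 at −0.88. In RAS signalling the differences were 2.09 for Egr1, 0.94 for Spred3, 0.85 for Egfr, 0.80 for Fosl1 and −0.98 for Spry1.

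Lipid genes lay on both sides. Abhd12 (0.84), Agpat4 (0.43), Slc44a2 (0.36), Cept1 (0.36), Ctsd (0.31), Pcyt2 (0.30) and Plin2 (0.21) were above 0. Pcyt2 counts with the cDNA include reads of the cDNA itself, so its difference does not compare the same transcript. Below 0 were Sdc1 (−0.21), Etnk1 (−0.22), Fads1 (−0.45), Idi1 (−0.51), Slc44a1 (−0.61), Scd2 (−0.70) and Fdps (−0.76). Further below were Fads2 (−1.05), Dgat2 (−1.33), Lrp1 (−1.43) and Vldlr (−2.02).

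Of the metabolic and antioxidant genes, Eno1 was at 0.17, Gsto1 at −0.29, Slc16a1 at −0.32, Idh2 at −0.34, Rpia at −0.40, Mthfd2 at −0.52, Cbr1 at −0.52, Idh1 at −0.94, Gsta4 at −1.38 and Gsta1 at −1.92. Epithelial and class I genes were below 0, Dsp at −0.44, Krt19 at −0.50, Ocln at −0.83, H2-D1 at −0.34 and Tapbp at −1.02.

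The genes named for the size of the difference were Mcpt8 (3.06), Lgr6 (2.73), Aif1l (2.43), Gzme (2.22) and Anks1b (2.11) above 0, beside Egr1. Gzme, a granzyme gene, measured 6.15 and 5.35 CPM off doxycycline, against 6.54 and 5.37 CPM on it, with the cDNA, and 1.53 and 1.91 CPM off doxycycline, against 8.78 and 7.75 CPM on it, without it. Anks1b measured 7.85 and 7.41 CPM off doxycycline, against 8.38 and 8.91 CPM on it, with the cDNA, and 4.27 and 4.03 CPM off doxycycline, against 21.5 and 19.2 CPM on it, without it. Below 0 were Gm17035 (−3.75), Lbp (−3.99), Hal (−4.10), Ugt2b36 (−4.12), Nepn (−4.29) and Wnt4 (−5.32). Ugt2b36, a glucuronosyltransferase gene with close relatives, measured 4.64 and 4.29 CPM off doxycycline, against 0.662 and 1.42 CPM on it, with the cDNA, and 18.0 and 16.0 CPM off doxycycline, against 0.126 and 0.340 CPM on it, without it. Lbp, of lipopolysaccharide binding, measured 2.55 and 3.67 CPM off doxycycline, against 0.368 and 0.118 CPM on it, with the cDNA, and 25.8 and 18.6 CPM off doxycycline, against 0.126 and 0.0680 CPM on it, without it. All exon bases of Gm17035 (100%) lie within exons of Ndrg1, so its counts cannot be told from those of Ndrg1.

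In 20 of the 71 the call was lost under at least 1 alternative. Leaving out replicate 1 off doxycycline with the cDNA gave adjusted p = 0.0515 for Hmgb2, 0.056 for Etnk1, 0.115 for Twist1 and 0.169 for Sdc1. Leaving out replicate 2 of that group gave 0.0514 for Ccnd2 and 0.0606 for Idi1. Without replicate 1 on doxycycline with the cDNA, Agpat4 had 0.0559 and Lbp 0.205. Without replicate 2 off doxycycline of the cells without the cDNA, Pcyt2 had 0.0969 and Mthfd2 0.0531, and without replicate 2 on doxycycline of those cells Ercc5 had 0.079. Cbr1, Eno1, H2-D1, Nepn, Pidd1, Rpia, Snai2, Sparc and Troap lost it without any of several libraries, with the highest adjusted p at 0.478, 0.127, 0.204, 0.136, 0.336, 0.354, 0.2, 0.123 and 0.297 among those fits in that order. With DESeq2 the call was lost for Cbr1 (0.11), H2-D1 (0.18), Pidd1 (0.206), Rpia (0.242), Snai2 (0.213), Sparc (0.0682), Troap (0.109) and Twist1 (0.0756). Without a filter on low counts it was lost for H2-D1 (0.0554) and Rpia (0.0966), and with the replicate block for Pidd1 (0.0536).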

How the results depend on the processing

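Over the alternatives the comparison with the cDNA called 4661 to 5982 genes higher and 4648 to 5535 lower, all within 1.5 times of 5557 and 5413. Leaving out 1 library of the 8 gave 5074 to 5718 higher and 4970 to 5535 lower, and without the cDNA 5379 to 5945 higher and 5250 to 5667 lower. The difference between the withdrawals depended on the tool, with DESeq2 calling 1233 above 0 and 1003 below, against 1850 and 1909 by edgeR, and 1473 to 2206 above and 1401 to 1805 below with 1 library left out. Unedited cells gave 4286 to 4653 higher and 4198 to 4385 lower with 1 library left out. The cause of these shifts was not tested.

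Of 129 named genes, all but 5 kept their direction and their side of the threshold under all alternatives run. Selenoi changed sign, at 0.036 without a filter, 0.00068 with a 1 CPM filter and 0.0027 with the 4 libraries alone, and with 1 library left out it ran from −0.059 to 0.042. Selenoi was called under none of these alternatives. Gzme, not called either, ran from −0.19 to 0.091 with 1 library left out, and turned to 0.091 and 0.069 without replicate 1 on and without replicate 2 off doxycycline with the cDNA. Sparc and Gm17035 lost the call under 2 alternatives each and Aif1l gained it under 4. Of 54 list counts with the cDNA 7 moved by more than 1.5 times under some alternative, and of 54 list counts of differences 26 did.

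Same-numbered libraries did not deviate together (r from −0.124 to 0.022 across genes, and from −0.228 to −0.185 in unedited cells). No large shift shared by number was thus seen, but these values cannot show whether libraries were prepared in pairs. With the number as a replicate block 5505 genes were higher and 5354 lower with the cDNA, 5788 and 5482 without it, 1750 above and 1815 below 0 for the difference, and 4432 and 4233 in unedited cells. Chosen after seeing the data, a crossed pairing of the block called 5549 higher and 5385 lower, and a fit without mitochondrial genes 5544 and 5400.

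Limits: with 2 libraries a group and 4 residual degrees of freedom the spread is pooled over groups, and a small spread between libraries lets changes far below 1 on the log2 scale pass the test. Counting on both strands leaves overlapping genes unresolved, and low genes rest on few counts. On doxycycline without the cDNA, Wnt4 had 1 and 3 counts, Lbp 2 and 1, Ugt2b36 2 and 5 and Hal 6 and 3. The sizes and ranks of their differences are therefore uncertain.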

Other observations

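By the annotated gene class, protein-coding genes split evenly with the cDNA, 4748 of 11889 tested higher and 4764 lower off doxycycline. The even split is in part set by the TMM scaling, which centres the bulk of genes near 0. Small nucleolar RNA genes went one way, with 70 of 106 lower, 1 higher and a median log2 change of −1.29. Long intergenic non-coding RNA genes leaned the other way, with 132 of 317 higher, 53 lower and a median of 0.42. The libraries were made from poly(A) RNA, and reads over small nucleolar RNA genes cannot be told from those of the host transcripts that hold them.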
